A study of Mus musculus with 24 samples.

Results

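Acyl-CoA thioesterases are the enzymes that split an acyl-CoA into a free fatty acid and coenzyme A. The 6 thioesterase genes described here, Acot1, Acot2, Acot7, Acot9, Acot11 and Acot13, were chosen by their gene symbols in the deposited annotation, out of 20961 genes listed there. Their RNA was measured in mouse heart by sequencing of polyadenylated RNA in 24 libraries. The mice were of the inbred strains NZO/HlLtJ and CAST/EiJ and of the strain C57BL/6J, with 8 libraries per strain, all labelled as wild type and as given no other treatment. Within each strain, females and males ate a diet of 44% fat or of 10% fat, both with fiber, which gives 12 groups with 2 libraries in each. The treatment protocol calls the diets high fat, high sugar and control, so that the diet comparison is not one of fat alone. The diets began at 6 weeks of age and the hearts were collected at 15 weeks of age. Nothing in the labels says whether both libraries of a group are from different animals. The p-values therefore cover only the spread between libraries, which may be technical.

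Long-chain acyl-CoAs are made from fatty acids by acyl-CoA synthetases and are burned in the mitochondria, which is the main source of energy of heart muscle. Thioesterases run the activation step backwards and release coenzyme A for other uses. The type I enzymes, which share the alpha/beta hydrolase fold, include Acot1 in the cytosol and Acot2 in the mitochondrial matrix, and the genes of this family sit side by side on mouse chromosome 12. Acot1 is a known target of PPAR alpha, the nuclear receptor that fatty acids activate. The type II enzymes, which share the hotdog fold, include Acot7 in the cytosol, known for its abundance in brain, Acot9 in mitochondria, Acot11, also called Them1 and known from brown fat, and the small protein Acot13, also called Them2.

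Acot1 (ENSMUSG00000072949) lies on the plus strand of chromosome 12 at 84009502 to 84017670 in GRCm38. Acot2 (ENSMUSG00000021226) lies on the same strand at 83987861 to 83993873. In the GENCODE M21 annotation, where Acot1 starts at 84009490, 15616 bases separate the genes. Acot7 (ENSMUSG00000028937) is on chromosome 4 at 152178134 to 152271855, plus strand, and Acot11 (ENSMUSG00000034853) is on the same chromosome at 106744555 to 106804998, minus strand. Acot9 (ENSMUSG00000025287) is on chromosome X at 155262443 to 155297654, plus strand, and Acot13 (ENSMUSG00000006717) is on chromosome 13 at 24817948 to 24831517, minus strand.

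Acot1 and Acot2 are near copies, and sequences of both are shown because they bear on which reads can be told apart. Their coding sequences in GENCODE M21 were identical at 95.3% of 1236 aligned bases, with a longest identical run of 273 bases. Acot2 has 21 gap positions in the alignment, and stretches with a gap were not compared. In the gap-free 100-base stretch where the genes differ most, 14 bases differ. These are in capitals (coding bases 787 to 886 of Acot1 and 910 to 1009 of Acot2):
Acot1: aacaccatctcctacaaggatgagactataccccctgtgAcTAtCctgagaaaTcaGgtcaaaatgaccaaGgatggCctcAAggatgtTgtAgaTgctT
Acot2: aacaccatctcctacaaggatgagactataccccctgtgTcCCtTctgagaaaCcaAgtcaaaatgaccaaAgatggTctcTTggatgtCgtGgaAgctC
The next 100 bases are the same in both genes. A read of 100 bases from there names neither gene, unless the other read of its pair does:
Acot1 and Acot2: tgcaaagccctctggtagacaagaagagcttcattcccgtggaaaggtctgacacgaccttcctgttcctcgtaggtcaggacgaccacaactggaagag
The coding sequence of Acot2 starts with 123 bases, in capitals below, that Acot1 lacks. The bases aligned with the start of Acot1 follow in lower case, and those that differ between the genes are not marked here:
Acot2, coding bases 1 to 153: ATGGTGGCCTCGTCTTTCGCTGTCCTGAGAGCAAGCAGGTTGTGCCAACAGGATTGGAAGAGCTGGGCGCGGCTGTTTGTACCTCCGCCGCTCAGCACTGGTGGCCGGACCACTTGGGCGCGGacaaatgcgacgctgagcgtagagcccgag
Acot1, coding bases 1 to 30: atggaggcgacgctgaaccttgagccctcg

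Of all stretches of 100 bases in the transcripts of Acot1, 12.4% also occur in transcripts of other genes, and of those of Acot2, 17.1% do. The share was 0.705% for Acot9, all in Acot10, a gene not analysed here, and 0 for Acot7, Acot11 and Acot13. The deposited expected counts of Acot1 and Acot2 were not whole numbers in any of the 24 libraries (tolerance 1e-06), those of Acot11 were not whole in 14, and those of Acot7, Acot9 and Acot13 were whole in all of them. Values for Acot1 or Acot2 alone are uncertain because of the shared stretches, and their summed counts are given beside them. Acot11 overlaps Fam151a, a gene on the opposite strand, over 1263 exon bases, and Fam151a itself was listed at 0 to 0.512 CPM (counts per 1e6 scaled counts of a library).

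Their promoters are shown because the RNA levels of the near copies had a like order across libraries, as described below. The RefSeq promoter table used here (GRCm38.p6) was matched for 5 of the 6 genes. The 250 bases before the start are printed with motif matches in capitals, for Acot1 at chr12:84009252-84009501 and for Acot2 at chr12:83987611-83987860, both on the plus strand:
Acot1: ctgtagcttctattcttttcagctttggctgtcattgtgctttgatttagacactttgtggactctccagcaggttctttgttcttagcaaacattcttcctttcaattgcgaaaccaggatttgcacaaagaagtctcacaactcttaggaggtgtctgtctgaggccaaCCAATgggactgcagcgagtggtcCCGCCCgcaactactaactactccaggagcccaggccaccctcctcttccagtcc
Acot2: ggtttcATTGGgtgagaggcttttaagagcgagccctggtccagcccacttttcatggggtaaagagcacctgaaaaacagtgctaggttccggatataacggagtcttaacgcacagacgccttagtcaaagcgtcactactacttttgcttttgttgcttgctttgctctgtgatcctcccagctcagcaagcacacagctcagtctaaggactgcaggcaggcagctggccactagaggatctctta
In contrast to the coding sequences, the promoter windows of 300 bases were identical at 56.5% of 262 aligned bases. Acot1 holds CCAAT at -79 to -75 and the GC box GGGCGG, on the reverse strand, at -55 to -50, counted from the start. Acot2 holds CCAAT on the reverse strand at -244 to -240. Among the 32851 promoter windows of the table, 37.4% hold CCAAT and 35.7% hold GGGCGG on either strand. The nuclear receptor half-site AGGTCA, found in 16.3% of all windows, and its direct repeat spaced by 1 base, found in 0.0396%, were in neither of these windows. A match is a run of letters and not a bound site.

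The 24 libraries held 30205073 to 52254058 expected counts each. Of the listed genes, 17203 passed the filter on low counts, all 6 thioesterase genes among them, and were tested. All 10 cardiomyocyte markers were present in each library, at a summed 53675 to 67197 CPM. Counts of mitochondrially encoded genes took 25.8% to 28.8% of the C57BL/6J libraries and 20.2% to 23.9% of the others. The library identifiers in the labels fall into 3 ranges, and what these mark is not stated. The first range holds 1 library of each CAST/EiJ and C57BL/6J group and no NZO/HlLtJ library. All CAST/EiJ libraries of the second range are on 10% fat, and all those of the third range are on 44% fat. Outside the first range, diet and range therefore cannot be told apart in CAST/EiJ.

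Levels were compared between genes as CPM per kilobase of merged exons. Acot13 had the highest level in each strain, at 153 ± 8.89 CPM per kilobase in NZO/HlLtJ, 112 ± 7.19 in CAST/EiJ and 166 ± 11.2 in C57BL/6J hearts (SD, n = 8 each). Acot2 came next, at 29.7 ± 11.7 CPM per kilobase in NZO/HlLtJ, 29.8 ± 5.57 in CAST/EiJ and 39.2 ± 6.80 in C57BL/6J hearts. Acot7 and Acot9 followed, and in CAST/EiJ their levels of 11.1 ± 0.951 and 10.7 ± 0.847 CPM per kilobase were within each other's spread. Acot1 and Acot11 were at the low end. In C57BL/6J hearts these had 5.09 ± 1.41 and 4.70 ± 0.486 CPM per kilobase, again within the spread. In NZO/HlLtJ hearts Acot1 had 2.29 ± 1.26 CPM per kilobase, less than Acot11 with 4.94 ± 0.612. The order of Acot1, Acot7, Acot9 and Acot11 depends on the length used: with the length of the coding transcript alone, Acot11 stood at 17 and Acot7 at 15.7 CPM per kilobase in CAST/EiJ hearts.

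The first comparison asks whether heart thioesterase RNA differed between the 44% and the 10% fat diet. None of the 6 genes passed the test in any strain or in the average over strains, with edgeR's quasi-likelihood test and Benjamini-Hochberg adjustment over all tested genes at a threshold of 0.05. Few genes of any kind did: 0.0407% of tested genes in C57BL/6J, 0% in CAST/EiJ, 0% in NZO/HlLtJ and 0.157% in the average over strains passed. At an unadjusted p under 0.05 the counts were 1137 in CAST/EiJ and 1233 in NZO/HlLtJ, and DESeq2 called 30 and 12. Acot1 and Acot2 nevertheless had the largest diet differences among the 6 genes in each of these comparisons, and their values follow. In bulk heart RNA, a change in the number of cells of a type and a change in RNA per cell cannot be told apart.

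In CAST/EiJ hearts, Acot1 stood at 17.4 and 9.31 CPM in females and at 10.8 and 13.5 CPM in males on 44% fat, against 7.39 and 7.03 CPM in females and 4.17 and 5.33 CPM in males on 10% fat. All 4 libraries on 44% fat lay above all 4 on 10% fat, with means of 12.8 ± 3.57 CPM on 44% fat and 5.98 ± 1.51 CPM on 10% fat (SD, n = 4 each). The log2 difference was 1.13 (SE 0.26, edgeR adjusted p = 0.347). DESeq2 gave 1.12 with an adjusted p of 0.0177, which is past the threshold, in a comparison where it called 30 genes and edgeR 0. Within the first identifier range, with 2 libraries per diet, the difference was 1.30 (edgeR adjusted p = 0.357).

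In C57BL/6J hearts, Acot1 stood at 17.9 and 30.2 CPM in females and at 22.4 and 25.2 CPM in males on 44% fat, against 14.5 and 17.7 CPM in females and 16.3 and 15.3 CPM in males on 10% fat. The diets did not overlap here either, although the lowest library on 44% fat, 17.9 CPM, lay just above the highest on 10% fat, 17.7 CPM. The log2 difference was 0.59 (SE 0.24, edgeR adjusted p = 0.831), and within the first identifier range it was 0.39 (edgeR adjusted p = 1). The 7 brown adipocyte markers, which include the heart-expressed Cox7a1 and Cox8b, summed to 606 to 696 CPM on 44% fat and 541 to 558 CPM on 10% fat in this strain, with none called. In CAST/EiJ their sum was 400 to 504 CPM on 44% fat and 442 to 680 CPM on 10% fat. Their part in the Acot1 values was not tested.

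In NZO/HlLtJ hearts, Acot1 stood at 8.09 and 5.35 CPM in females and at 11.2 and 19.7 CPM in males on 44% fat, against 10.5 and 6.27 CPM in females and 5.0 and 5.64 CPM in males on 10% fat. The diets overlapped, and both females on 44% fat lay below the higher female on 10% fat. The log2 difference was 0.61 (SE 0.26, edgeR adjusted p = 0.673), and it was 0.38 without the second male library on 44% fat. Each of the identifier ranges with NZO/HlLtJ libraries holds 2 libraries of each diet, from opposite sexes, and a fit that blocks on the range gave a difference of 0.61 (edgeR adjusted p = 0.648).

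Acot2, the mitochondrial near copy, showed a smaller difference with a like order of libraries. In CAST/EiJ hearts it stood at 75.9 and 70.2 CPM in females and at 70.6 and 85.0 CPM in males on 44% fat, against 59.4 and 61.1 CPM in females and 48.0 and 53.3 CPM in males on 10% fat. In C57BL/6J hearts it stood at 89.7 and 113 CPM in females and at 94.4 and 94.1 CPM in males on 44% fat, against 66.9 and 70.6 CPM in females and 75.8 and 84.7 CPM in males on 10% fat. The diets did not overlap in either strain. The log2 differences of Acot2 were 0.45 in CAST/EiJ (SE 0.16, edgeR adjusted p = 0.656) and 0.39 in C57BL/6J (SE 0.16, edgeR adjusted p = 0.829). The CAST/EiJ difference was 0.41 to 0.46 over the alternative fits, the first identifier range alone and the range as a block among them.

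In NZO/HlLtJ hearts, Acot2 stood at 62.1 and 51.6 CPM in females and at 68.4 and 125 CPM in males on 44% fat, against 65.7 and 46.1 CPM in females and 46.7 and 55.6 CPM in males on 10% fat. The 125 CPM came from the same male library as the highest Acot1 value of the strain, and the other 3 libraries on 44% fat overlapped with those on 10% fat. Skeletal muscle markers summed to 4824 CPM in that library and to 2557 to 3467 CPM in the other NZO/HlLtJ libraries. This rested on Acta1, an actin that heart muscle also expresses, at 3433 CPM, while the other 7 markers had their highest NZO/HlLtJ value in other libraries, and 6 of them stayed at or below 0.649 CPM in this strain. The part of Acta1 in the Acot1 and Acot2 values was not tested. The log2 difference was 0.47 (SE 0.16, edgeR adjusted p = 0.616). It was 0.22 without that library and 0.66 without the other male library on 44% fat.

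**Figure D1:**
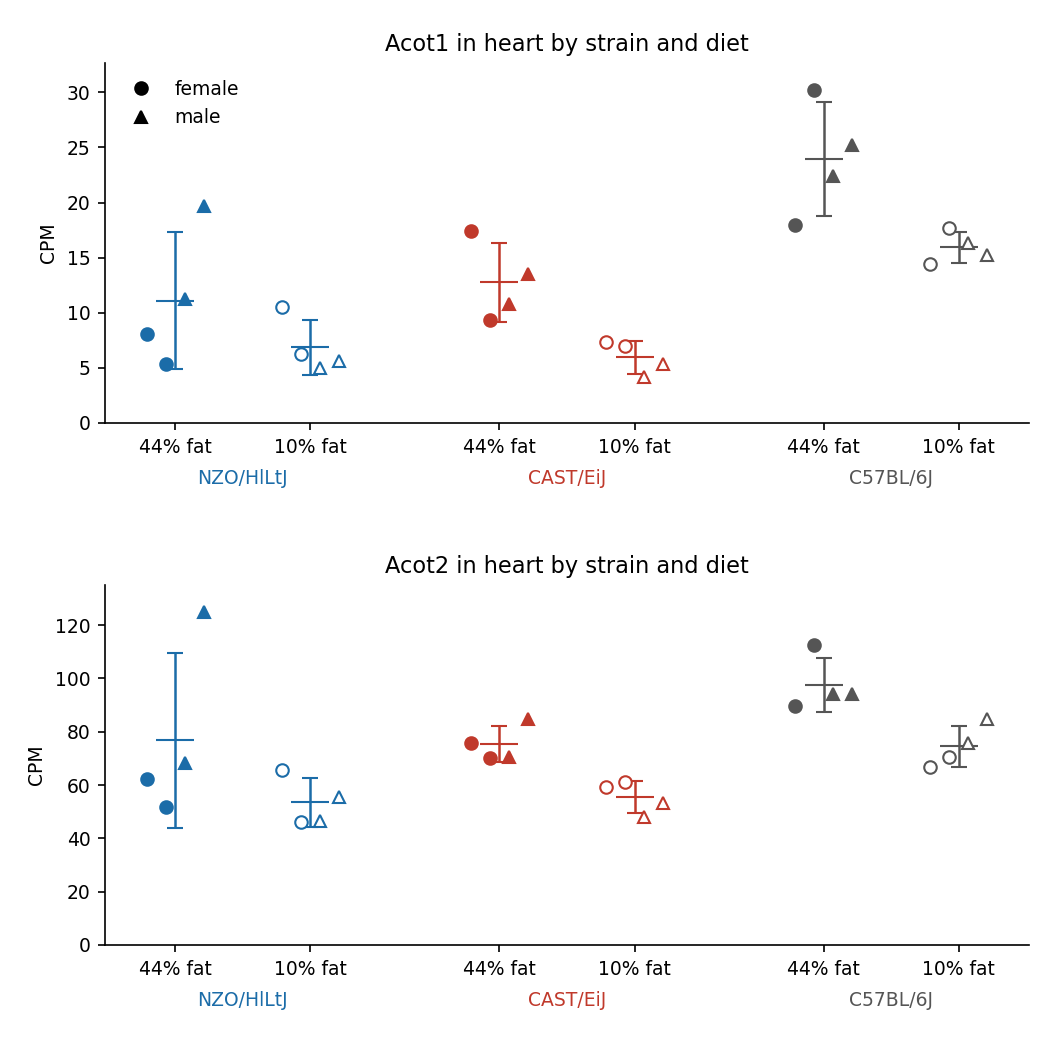
Acot1 and Acot2 in CPM (linear axes from 0) in each library by strain and diet, with circles for females, triangles for males and bars for the mean ± SD of the 4 libraries. Acot1 on 44% fat averaged 12.8 CPM against 5.98 CPM on 10% fat in CAST/EiJ, and 1 NZO/HlLtJ male library on 44% fat stands apart at 19.7 CPM for Acot1 and 125 CPM for Acot2.

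Non-overlapping diets occurred for 4.11% of tested genes in C57BL/6J and for 2.78% in CAST/EiJ. Random division of 4 against 4 libraries gives such a separation at a rate of 0.0286. Acot1 and Acot2 share reads in part, so their separations are not independent of each other. Averaged over strains, the log2 difference between diets was 0.77 for Acot1 (SE 0.15, edgeR adjusted p = 0.0613) and 0.44 for Acot2 (SE 0.09, edgeR adjusted p = 0.107). DESeq2 called both, with the same differences and adjusted p-values of 0.000254 for Acot1 and 9.72e-05 for Acot2. It called more genes of any kind in this comparison, 106 of 17203 tested against 27 with edgeR. Leaving out single libraries gave 0.69 to 0.84 for Acot1 and 0.36 to 0.50 for Acot2. For Acot1 the difference was 0.83 without the first NZO/HlLtJ male on 44% fat and 0.84 without the second CAST/EiJ female on 44% fat. Without the first C57BL/6J female on 44% fat it was 0.83. For Acot2 the difference was 0.50 without the first NZO/HlLtJ male on 44% fat and 0.36 without the second. When the identifier range entered as a block, the averages were 0.77 for Acot1 (edgeR adjusted p = 0.146) and 0.43 for Acot2 (edgeR adjusted p = 0.185). The first NZO/HlLtJ male library on 44% fat had the strain's highest Ucp1, a brown adipocyte marker, at 51.0 CPM with the next at 19.2 CPM. Its white adipocyte marker Plin1 was at 23.1 CPM with the next at 10.7 CPM. The white and brown marker sums, 509 and 511 CPM, lay within those of the other NZO/HlLtJ libraries. Their part in the diet differences was not tested.

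Counted together, which removes the division of reads between them, Acot1 and Acot2 had 88.2 ± 9.21 CPM on 44% fat and 61.4 ± 7.45 CPM on 10% fat in CAST/EiJ hearts. In C57BL/6J hearts the sum was 122 ± 15 CPM on 44% fat and 90.4 ± 7.76 CPM on 10% fat. In NZO/HlLtJ hearts it was 87.9 ± 39.1 CPM on 44% fat and 60.4 ± 11.4 CPM on 10% fat (SD, n = 4 for each diet). The average log2 difference of the sum was 0.48 (SE 0.10, edgeR adjusted p = 0.0926), and DESeq2 called it (0.48, adjusted p = 0.000988). Without the first NZO/HlLtJ male on 44% fat the difference was 0.54, and leaving out single libraries gave 0.40 to 0.54.

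Whether the diet difference itself differed between strains was tested as an interaction, and none of the 6 genes passed. The share of all tested genes that passed was 0% for CAST/EiJ minus C57BL/6J, 0.00581% for NZO/HlLtJ minus C57BL/6J and 0% for NZO/HlLtJ minus CAST/EiJ. For Acot1 the CAST/EiJ diet difference exceeded that of C57BL/6J by 0.54 (SE 0.35, edgeR adjusted p = 0.843). The NZO/HlLtJ difference stood 0.52 below that of CAST/EiJ for the same gene (log2 difference of differences -0.52, SE 0.36, edgeR adjusted p = 0.973). For Acot2 these values were between 0.02 and 0.08, with standard errors of 0.23.

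Acot1 also made up a varying part of the pair. Its share of the summed counts was 14.3% ± 3.02 on 44% fat and 9.62% ± 1.35 on 10% fat in CAST/EiJ hearts (SD, n = 4 each; exact two-sided permutation test, p = 0.0286, the smallest that 4 against 4 can give, 0.0571 after adjustment over 6 comparisons). In C57BL/6J hearts the share was 19.5% ± 2.12 on 44% fat and 17.7% ± 1.93 on 10% fat (exact permutation test, adjusted p = 0.3). In NZO/HlLtJ hearts it was 12.2% ± 2.16 on 44% fat and 11.2% ± 2.14 on 10% fat (exact permutation test, adjusted p = 0.789). Within the first identifier range the CAST/EiJ shares were 16.0% on 44% fat and 9.54% on 10% fat, with 2 libraries each.

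**Figure D2:**
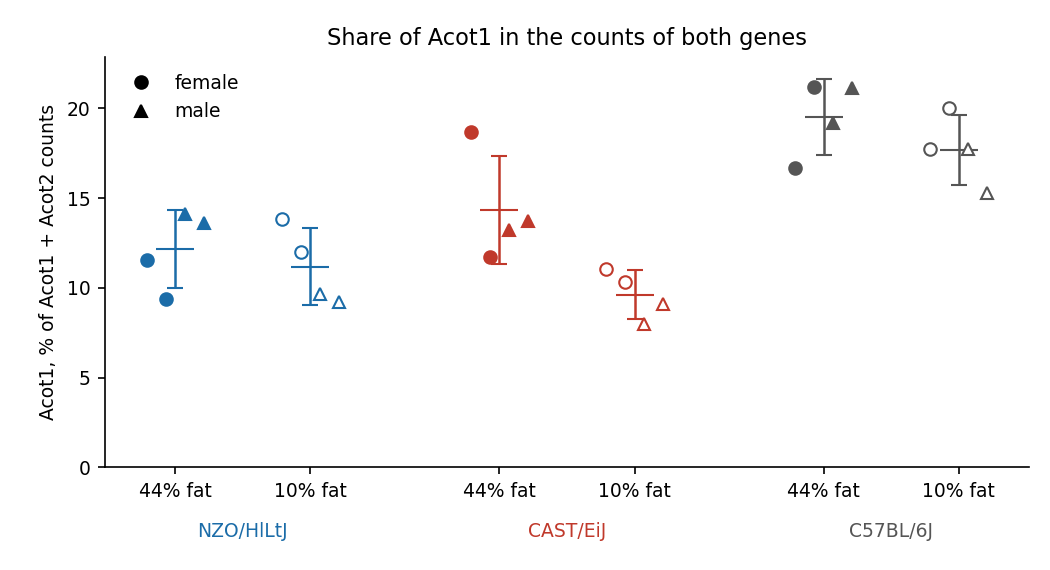
Share of Acot1 in the summed counts of Acot1 and Acot2, in percent, for each library by strain and diet, with the mean ± SD of 4 libraries. NZO/HlLtJ libraries averaged 12.2% on 44% fat and 11.2% on 10% fat, below the C57BL/6J averages of 19.5% on 44% fat and 17.7% on 10% fat.

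The type II genes had small diet differences. For Acot7, whose protein is cytosolic, the average log2 difference was -0.04 (SE 0.04, edgeR adjusted p = 0.819). For Acot13 it was -0.03 (SE 0.04, edgeR adjusted p = 0.870), and for Acot9 it was 0.03 (SE 0.03, edgeR adjusted p = 0.864). In NZO/HlLtJ hearts, Acot9, the mitochondrial type II enzyme, stood at 20.9 and 21.3 CPM in females and at 21.3 and 21.6 CPM in males on 44% fat, against 19.2 and 19.8 CPM in females and 19.4 and 18.1 CPM in males on 10% fat. These diets did not overlap, as for 3.34% of tested genes in this strain, and the log2 difference was 0.15 (SE 0.06, edgeR adjusted p = 0.636). In CAST/EiJ hearts the Acot9 difference was -0.11, and the interaction between these strains was 0.26 (SE 0.08, unadjusted p = 0.00621, edgeR adjusted p = 0.973).

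Acot11, the thioesterase known from brown fat, had an average log2 diet difference of -0.07 (SE 0.11, edgeR adjusted p = 0.907), and this value rested on 1 library. In CAST/EiJ hearts it stood at 43.6 and 45 CPM in females and at 40.5 and 48.0 CPM in males on 44% fat, against 46.4 and 40.1 CPM in females and 93.3 and 42.4 CPM in males on 10% fat. The diets overlapped apart from the first male library on 10% fat, at 93.3 CPM. The CAST/EiJ diet difference was -0.29 with this library (SE 0.19, edgeR adjusted p = 0.858) and 0.05 without it, and the average over strains turned to 0.04 without it.

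**Figure D3:**
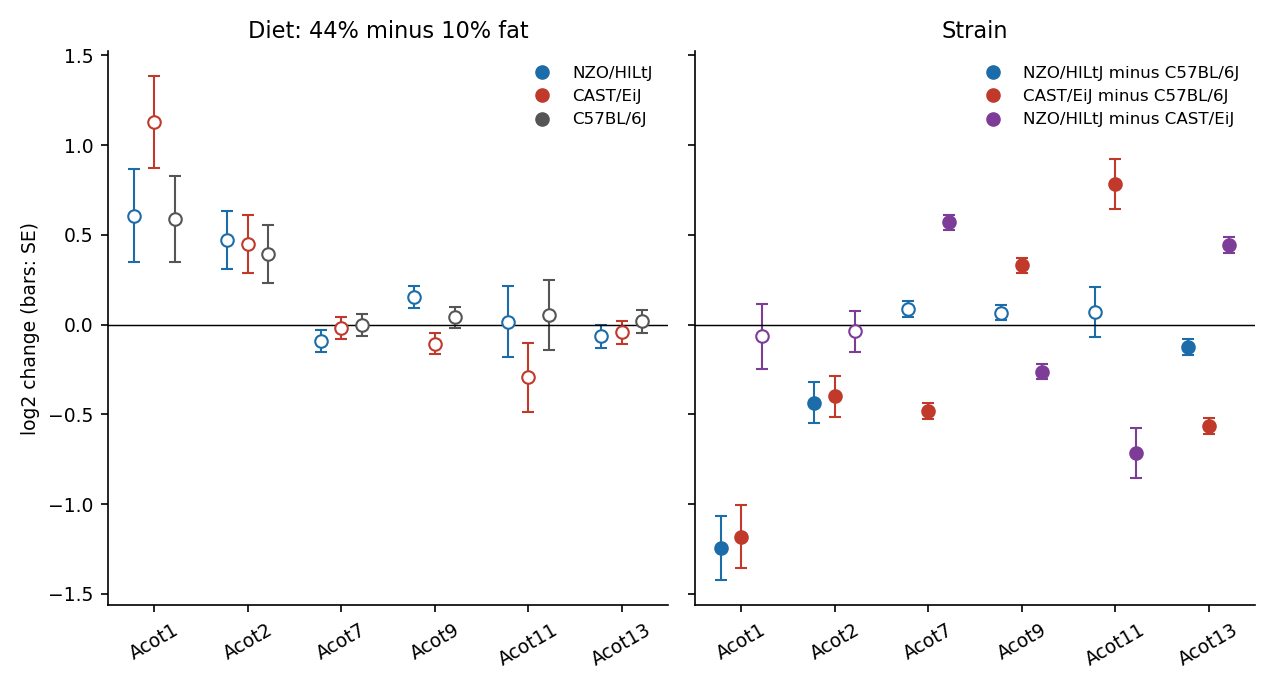
Log2 differences of the 6 genes with their standard errors, by comparison, from edgeR, with filled symbols for adjusted p-values under 0.05. For diet no symbol is filled, and Acot1 in CAST/EiJ lies farthest to the positive side at 1.13, while for strain the values run from -1.25 (Acot1, NZO/HlLtJ minus C57BL/6J) to 0.78 (Acot11, CAST/EiJ minus C57BL/6J).

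The second comparison asks whether thioesterase RNA differed between strains, over both diets and sexes. The 3 strain comparisons share libraries, so each is given with its own values. Strain accounted for 89.1% of the variance of log2 CPM between libraries for Acot7, 88.7% for Acot13, 75.5% for Acot9, 64.8% for Acot11, 51.9% for Acot1 and 28.8% for Acot2. Diet accounted for 32.1% for Acot2 and 21.6% for Acot1, and for under 1% for the others, namely 0.915% for Acot9, 0.536% for Acot11, 0.510% for Acot7 and 0.362% for Acot13. The spread between the 2 libraries of a group took up 23.1% for Acot11 and 20.4% for Acot2.

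In CAST/EiJ against C57BL/6J hearts, all 6 genes passed the test, 4 lower and 2 higher in CAST/EiJ, where 58.8% of all tested genes passed, 29.7% lower and 29.1% higher. In NZO/HlLtJ against C57BL/6J hearts, 3 of the 6 passed, all lower in NZO/HlLtJ, where 35.5% of all tested genes passed, 17.6% lower and 17.9% higher. In NZO/HlLtJ against CAST/EiJ hearts, 4 of the 6 passed, 2 higher and 2 lower in NZO/HlLtJ, where 60.3% of all tested genes passed, 30.5% higher and 29.8% lower. The median log2 differences of the 6 genes were -0.44, -0.03 and -0.05 in these comparisons, beside 0.00 for all tested genes in each.

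The type I genes were lower in both NZO/HlLtJ and CAST/EiJ than in C57BL/6J hearts. Acot1 averaged 8.98 ± 4.94 CPM in NZO/HlLtJ, 9.37 ± 4.43 CPM in CAST/EiJ and 19.9 ± 5.53 CPM in C57BL/6J (SD, n = 8 each). Its lowest, median and highest library were 5.0, 7.18 and 19.7 CPM in NZO/HlLtJ, 4.17, 8.35 and 17.4 CPM in CAST/EiJ and 14.5, 17.8 and 30.2 CPM in C57BL/6J. NZO/HlLtJ and CAST/EiJ overlapped with C57BL/6J through 1 library each, both on 44% fat, and overlapped widely with each other. The log2 difference of Acot1 was -1.25 in NZO/HlLtJ against C57BL/6J (SE 0.18, edgeR adjusted p = 7.34e-05) and -1.18 in CAST/EiJ against C57BL/6J (SE 0.18, edgeR adjusted p = 4.76e-05). NZO/HlLtJ and CAST/EiJ differed by -0.07 for Acot1 (SE 0.18, edgeR adjusted p = 0.778).

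Acot2 averaged 65.2 ± 25.6 CPM in NZO/HlLtJ, 65.4 ± 12.2 CPM in CAST/EiJ and 86.1 ± 14.9 CPM in C57BL/6J hearts. Its lowest, median and highest library were 46.1, 58.8 and 125 CPM in NZO/HlLtJ, 48.0, 65.7 and 85.0 CPM in CAST/EiJ and 66.9, 87.2 and 113 CPM in C57BL/6J. The ranges overlapped between all 3 strains. The log2 difference of Acot2 was -0.44 in NZO/HlLtJ against C57BL/6J (SE 0.11, edgeR adjusted p = 0.0083) and -0.40 in CAST/EiJ against C57BL/6J (SE 0.11, edgeR adjusted p = 0.00776). NZO/HlLtJ and CAST/EiJ differed by -0.04 for Acot2 (SE 0.11, edgeR adjusted p = 0.805).

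Counted together, Acot1 and Acot2 were lower in both strains, with a log2 difference of -0.56 in NZO/HlLtJ (edgeR adjusted p = 0.00251) and -0.51 in CAST/EiJ (edgeR adjusted p = 0.00219), each against C57BL/6J. The share of Acot1 in the sum was 11.7% ± 2.06 in NZO/HlLtJ, 12% ± 3.33 in CAST/EiJ and 18.6% ± 2.12 in C57BL/6J hearts (SD, n = 8 each). It differed from C57BL/6J in NZO/HlLtJ (exact permutation test, p = 0.0001554, the smallest that 8 against 8 can give, adjusted p = 0.000932) and in CAST/EiJ (exact permutation test, adjusted p = 0.0028). It did not pass between NZO/HlLtJ and CAST/EiJ (exact permutation test, adjusted p = 0.831). The sources used here do not give the genome that the reads of each strain were aligned to. Alleles of NZO/HlLtJ and CAST/EiJ that differ from the reference could be counted or divided in another way, and their part in these differences was not tested.

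Within the first identifier range, the CAST/EiJ against C57BL/6J differences were -1.0 for Acot1 (edgeR adjusted p = 0.0245) and -0.37 for Acot2 (edgeR adjusted p = 0.00217). Without the first CAST/EiJ male library on 10% fat, a choice made after seeing the data, they were -0.81 for Acot1 (edgeR adjusted p = 0.0527), which no longer passed, and -0.29 for Acot2 (edgeR adjusted p = 0.00621). NZO/HlLtJ has no library in that range. Markers of other cells also moved with the NZO/HlLtJ strain. All 10 fibroblast markers were called higher in NZO/HlLtJ than in C57BL/6J, with summed levels of 1645 to 2053 CPM in NZO/HlLtJ, 1022 to 1378 CPM in CAST/EiJ and 1189 to 1298 CPM in C57BL/6J libraries. Of 8 skeletal muscle markers in the files, the summed level was 2557 to 4824 CPM in NZO/HlLtJ against 1312 to 1735 CPM in the other strains, although of the 7 tested 2 were called higher and 2 lower in NZO/HlLtJ against C57BL/6J. Nearly all of that sum came from Ckm and Acta1, which averaged 1535 and 1785 CPM in NZO/HlLtJ. Their part in the strain differences was not tested. With scaling that leaves out the mitochondrially encoded genes, the log2 difference was -1.25 for Acot1 in NZO/HlLtJ against C57BL/6J and -1.17 in CAST/EiJ against C57BL/6J.

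Acot13 and Acot7 set CAST/EiJ apart from the other strains on the low side. Acot13 averaged 114 ± 6.62 CPM in NZO/HlLtJ, 83.5 ± 5.35 CPM in CAST/EiJ and 124 ± 8.36 CPM in C57BL/6J hearts. Its lowest, median and highest library were 101, 113 and 123 CPM in NZO/HlLtJ, 73.5, 84.4 and 89.9 CPM in CAST/EiJ and 112, 123 and 137 CPM in C57BL/6J. No CAST/EiJ library reached the lowest library of another strain. The log2 difference of Acot13 was -0.57 in CAST/EiJ against C57BL/6J (SE 0.05, edgeR adjusted p = 2.95e-09) and 0.44 in NZO/HlLtJ against CAST/EiJ (SE 0.05, edgeR adjusted p = 8.72e-08). NZO/HlLtJ was lower than C57BL/6J by a small and less certain amount, -0.12 (SE 0.04, edgeR adjusted p = 0.0391). This call was lost without scaling factors (-0.07, edgeR adjusted p = 0.163), with the identifier range as a block (-0.08, edgeR adjusted p = 0.217) and when any of 11 of the 24 libraries was left out.

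Acot7 averaged 35.1 ± 1.97 CPM in NZO/HlLtJ, 23.7 ± 2.02 CPM in CAST/EiJ and 33.0 ± 1.40 CPM in C57BL/6J hearts. Its lowest, median and highest library were 32.0, 35.6 and 36.9 CPM in NZO/HlLtJ, 20.2, 23.4 and 26.2 CPM in CAST/EiJ and 30.5, 32.8 and 35.3 CPM in C57BL/6J. CAST/EiJ again lay wholly below, while NZO/HlLtJ and C57BL/6J overlapped. The log2 difference of Acot7 was -0.48 in CAST/EiJ against C57BL/6J (SE 0.04, edgeR adjusted p = 1.94e-08) and 0.57 in NZO/HlLtJ against CAST/EiJ (SE 0.04, edgeR adjusted p = 1.69e-09). It was 0.09 in NZO/HlLtJ against C57BL/6J (SE 0.04, edgeR adjusted p = 0.131), which passed only without scaling factors (0.14, edgeR adjusted p = 0.0162).

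Acot9 and Acot11 set CAST/EiJ apart on the high side. Acot9 averaged 20.2 ± 1.26 CPM in NZO/HlLtJ, 24.2 ± 1.93 CPM in CAST/EiJ and 19.3 ± 0.592 CPM in C57BL/6J hearts. Its lowest, median and highest library were 18.1, 20.4 and 21.6 CPM in NZO/HlLtJ, 22.6, 23.6 and 28.6 CPM in CAST/EiJ and 18.5, 19.2 and 20.3 CPM in C57BL/6J. All CAST/EiJ libraries lay above all others. The log2 difference of Acot9 was 0.33 in CAST/EiJ against C57BL/6J (SE 0.04, edgeR adjusted p = 1.95e-06) and -0.26 in NZO/HlLtJ against CAST/EiJ (SE 0.04, edgeR adjusted p = 2.74e-05). It was 0.07 in NZO/HlLtJ against C57BL/6J (SE 0.04, edgeR adjusted p = 0.245) and 0.12 without scaling factors (edgeR adjusted p = 0.042).

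Acot11 averaged 29.9 ± 3.71 CPM in NZO/HlLtJ, 49.9 ± 17.8 CPM in CAST/EiJ and 28.5 ± 2.94 CPM in C57BL/6J hearts. Its lowest, median and highest library were 23.6, 30.8 and 33.7 CPM in NZO/HlLtJ, 40.1, 44.3 and 93.3 CPM in CAST/EiJ and 23.5, 29.0 and 32.2 CPM in C57BL/6J. All CAST/EiJ libraries lay above all others here too, which the 93.3 CPM library, as the highest of them, cannot change. The log2 difference of Acot11 was 0.78 in CAST/EiJ against C57BL/6J (SE 0.14, edgeR adjusted p = 0.000225) and -0.71 in NZO/HlLtJ against CAST/EiJ (SE 0.14, edgeR adjusted p = 0.000454). Without that library these were 0.61 (edgeR adjusted p = 1.19e-05) and -0.55 (edgeR adjusted p = 3.70e-05). NZO/HlLtJ and C57BL/6J differed by 0.07 for Acot11 (SE 0.14, edgeR adjusted p = 0.749).

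Such complete separation of strains was frequent among all genes. It held for 27% of tested genes between CAST/EiJ and C57BL/6J, for 26.8% between NZO/HlLtJ and CAST/EiJ and for 12.2% between NZO/HlLtJ and C57BL/6J, where none of the 6 genes showed it. Within the first identifier range, the CAST/EiJ against C57BL/6J differences of the type II genes were -0.61 for Acot13, -0.49 for Acot7, 0.36 for Acot9 and 0.96 for Acot11. The first CAST/EiJ male library on 10% fat is 1 of the 4 CAST/EiJ libraries of that range, and without it they were -0.63 for Acot13, -0.44 for Acot7, 0.30 for Acot9 and 0.68 for Acot11, each still past the threshold (largest edgeR adjusted p = 0.00933).

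**Figure D4:**
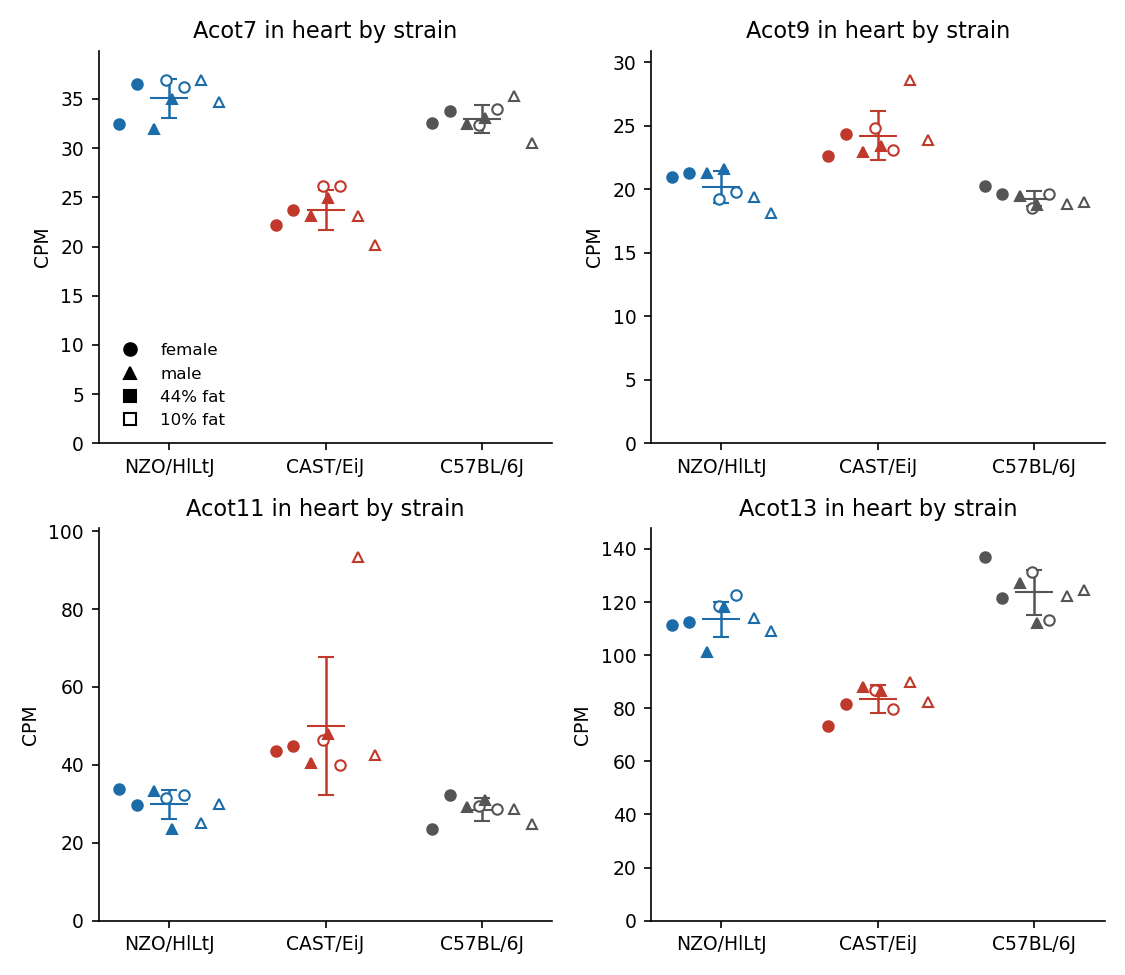
Acot7, Acot9, Acot11 and Acot13 in CPM (linear axes from 0) in each library by strain, filled for 44% fat and open for 10% fat, with the mean ± SD of 8 libraries. CAST/EiJ averaged 83.5 CPM for Acot13 and 23.7 CPM for Acot7, below both other strains, and 24.2 CPM for Acot9 and 49.9 CPM for Acot11, above both.

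The CAST/EiJ male library on 10% fat with 93.3 CPM of Acot11 also stood apart in adipocyte genes. Ucp1, the uncoupling protein of brown fat, was at 140 CPM there and at 1.12 to 26.6 CPM in the other 7 CAST/EiJ libraries. Of the 7 brown adipocyte markers in the files, 5 were highest among CAST/EiJ libraries in this one, with a summed 680 CPM against 400 to 520 CPM. Of 10 white adipocyte markers, 8 were highest there, with a summed 697 CPM against 387 to 614 CPM, and of 10 nerve and Schwann cell markers, 8 were, with 22.1 CPM against 11.7 to 16.9 CPM. The macrophage markers also summed to more there, 295 CPM against 225 to 277 CPM, although only 4 of the 10 were highest in it. The cardiomyocyte markers summed to 62887 CPM there, within the 53675 to 65507 CPM of the other CAST/EiJ libraries. The Acot11 difference between CAST/EiJ and C57BL/6J stayed past the threshold without this library, as given above.

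**Figure D5:**
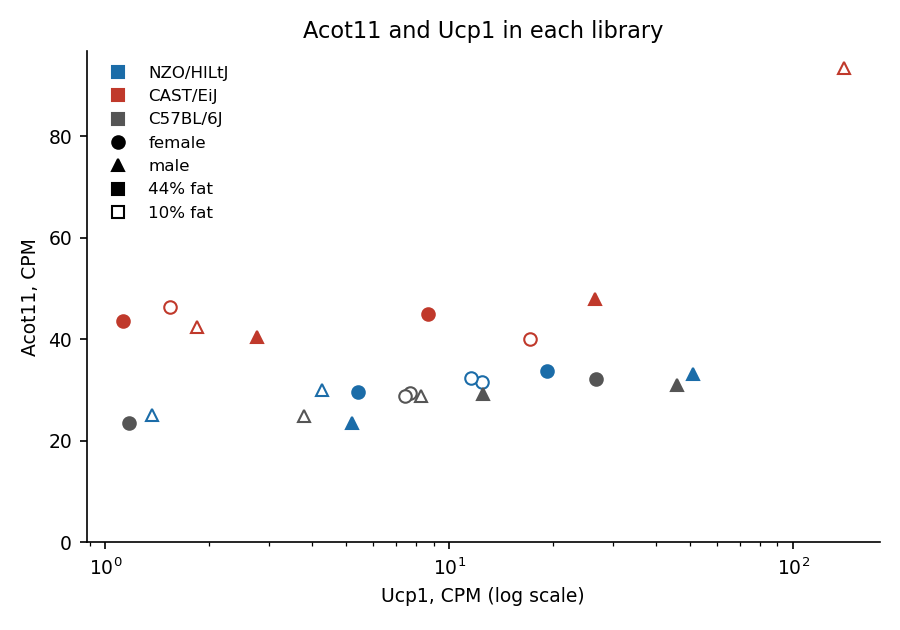
Acot11 against Ucp1 in CPM (logarithmic axis for Ucp1) in the 24 libraries, by strain. The CAST/EiJ male library on 10% fat lies alone at 140 CPM of Ucp1 and 93.3 CPM of Acot11, while the other CAST/EiJ libraries lie at 40.1 to 48.0 CPM of Acot11.

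Neither sex nor the diet difference between sexes was called for any of the 6 genes, where 0.372% (0.174% higher and 0.198% lower in females) and 0% of tested genes passed (784 of all genes had an unadjusted p under 0.05 for diet by sex). Female minus male log2 differences ran from -0.10 for Acot2 (SE 0.09) to 0.05 for Acot7 (SE 0.04). For Acot1 the diet difference in females stood 0.78 below that in males (log2 difference of differences -0.78, SE 0.29, unadjusted p = 0.0184, edgeR adjusted p = 0.985). In NZO/HlLtJ, females averaged 6.72 CPM on 44% fat and 8.40 CPM on 10% fat, and males 15.5 CPM on 44% fat and 5.32 CPM on 10% fat. In CAST/EiJ, females averaged 13.4 CPM on 44% fat and 7.21 CPM on 10% fat, and males 12.2 CPM on 44% fat and 4.75 CPM on 10% fat. In C57BL/6J, females averaged 24.1 CPM on 44% fat and 16.1 CPM on 10% fat, and males 23.8 CPM on 44% fat and 15.8 CPM on 10% fat (n = 2 each). The sexes thus stood furthest apart in NZO/HlLtJ, where females on 10% fat and males on 44% fat make up one identifier range and the other groups make up another, so that diet by sex and the range cannot be told apart within this strain.

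The neighbours of Acot1 and Acot2 on chromosome 12, Acot4, Acot3 and Acot6, are further type I genes. All 3 were expressed at low levels and, like Acot1 and Acot2, were lower in both NZO/HlLtJ and CAST/EiJ than in C57BL/6J hearts. Of all tested genes, 17.6% were called lower in NZO/HlLtJ and 29.7% in CAST/EiJ, each against C57BL/6J. Acot3, a peroxisomal enzyme, averaged 0.202 ± 0.117 CPM in NZO/HlLtJ, 0.311 ± 0.211 CPM in CAST/EiJ and 1.04 ± 0.408 CPM in C57BL/6J hearts (SD, n = 8 each). Its log2 differences against C57BL/6J were -2.48 in NZO/HlLtJ (edgeR adjusted p = 8.12e-07) and -2.25 in CAST/EiJ (edgeR adjusted p = 1.51e-06). Acot4 had log2 differences of -0.80 in NZO/HlLtJ (edgeR adjusted p = 0.00879) and -0.72 in CAST/EiJ (edgeR adjusted p = 0.00912). Acot6 had -0.46 in NZO/HlLtJ (edgeR adjusted p = 0.029) and -0.80 in CAST/EiJ (edgeR adjusted p = 0.000248). Acot3 shares 13.8% of its 100-base stretches with other genes, Acot1, Acot4 and Acot6 among them. Acot3 and Acot4 also overlap an antisense gene, so their counts are uncertain too. The genes of the cluster are thus not independent of each other, and the part of strain alleles in their counts was not tested. None of the 5 genes was called between NZO/HlLtJ and CAST/EiJ or for diet, where Acot3 in CAST/EiJ came to a log2 difference of 2.13 (SE 0.47, edgeR adjusted p = 0.199). That value comes from levels near 0, with means of 0.444 ± 0.154 CPM on 44% fat and 0.178 ± 0.182 CPM on 10% fat (SD, n = 4 each). The lowest library on 10% fat was at 0 CPM.

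Of 15 other thioesterase genes on the list, which includes Acot3, Acot4 and Acot6, 11 were in the files and 9 passed the filter. None was called for diet. In CAST/EiJ against C57BL/6J, 2 were higher and 5 lower, in NZO/HlLtJ against C57BL/6J, 0 were higher and 6 lower, and in NZO/HlLtJ against CAST/EiJ, 1 was higher and 3 lower. Of all tested genes, 29.1% were higher and 29.7% lower in the first of these comparisons, 17.9% higher and 17.6% lower in the second, and 30.5% higher and 29.8% lower in the third. Their median log2 differences were -0.25, -0.46 and -0.19. Them7 was higher in CAST/EiJ than in C57BL/6J by 2.99 and lower in NZO/HlLtJ than in CAST/EiJ, at -3.50. Its mean level was 0.701 CPM in CAST/EiJ, 0.0847 CPM in C57BL/6J and 0.0644 CPM in NZO/HlLtJ. The highest Them7 library was at 0.128 CPM in C57BL/6J and 0.147 CPM in NZO/HlLtJ, so Them7 passed the filter on low counts only through CAST/EiJ. Its calls are among those counted above. Them4, a mitochondrial hotdog-fold enzyme, was higher in CAST/EiJ than in C57BL/6J by 0.41 and below C57BL/6J in NZO/HlLtJ, at -0.19. Ppt1 and Ppt2, the lysosomal palmitoyl thioesterases, differed in part: Ppt2 lay below C57BL/6J in NZO/HlLtJ, at -0.42, and Ppt1 was lower in CAST/EiJ than in C57BL/6J, at -0.25. Them6 was lower than in C57BL/6J in NZO/HlLtJ, at -0.46, and in CAST/EiJ, at -0.69. Acot8, a peroxisomal enzyme, was not called, with log2 differences of -0.06 in NZO/HlLtJ and 0.13 in CAST/EiJ against C57BL/6J.

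Genes that PPAR alpha is known to raise were set beside Acot1 and Acot2, neither of which is on that list. The list was chosen with earlier results of these data known, so its counts are a description and not a test. Of 33 such genes tested, 8 were called higher and 0 lower on 44% fat in the average over strains, where 0.128% of all tested genes were called higher. The median log2 difference of the 33 was 0.18, beside -0.00 for all tested genes. Acaa2, a thiolase of mitochondrial fatty acid oxidation, rose by 0.20 (edgeR adjusted p = 0.0133). Decr1, a reductase for unsaturated acyl-CoAs, rose by 0.33 and Ech1, an isomerase for them, rose by 0.32 (edgeR adjusted p = 0.0154 each). The log2 differences of Acot1 and Acot2, at 0.77 and 0.44, were larger than these 3, but with standard errors of 0.15 and 0.09 they did not pass, against 0.03, 0.05 and 0.05 for Acaa2, Decr1 and Ech1. By strain, 1 of the 33 was called for diet in C57BL/6J (Acaa2, 0.32, edgeR adjusted p = 0.0289), where 0.0349% of all tested genes were called higher, 0 in CAST/EiJ and 0 in NZO/HlLtJ. Between strains, 3 of the 33 were higher and 9 lower in NZO/HlLtJ against C57BL/6J (median log2 difference -0.10), and 2 were higher and 21 lower in CAST/EiJ against C57BL/6J (median log2 difference -0.21). Of all tested genes, 35.5% passed in NZO/HlLtJ, 17.9% higher and 17.6% lower, and 58.8% in CAST/EiJ, 29.1% higher and 29.7% lower, so that the share of the 33 that passed in NZO/HlLtJ was near that of all genes.

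Likeness across libraries was described by Pearson's r of log2 CPM after each strain's mean was subtracted, over 24 libraries and 12102 genes. These libraries share diets, sexes and depth, and no test was made. For Acot1 the most similar gene was Acot2 (r = 0.90), whose reads are shared in part. For Acot2 the most similar genes were Saraf, a regulator of calcium entry (r = 0.94), and Cd36, the fatty acid transporter (r = 0.92). Leaving out the 2 libraries farthest from the median gave 0.91 for Acot1 and 0.88 and 0.83 for Acot2. For Acot11 they were Slc24a3, a sodium-calcium exchanger (r = 0.90), and Klhdc7a (r = 0.90), which came to 0.72 and 0.69 without the 2 farthest libraries, the CAST/EiJ library described above among them. For Acot13 they were Bola3, which takes part in iron-sulfur cluster assembly (r = 0.83), and Mfn1, a mitochondrial fusion protein (r = 0.80), with 0.79 and 0.67 after the same step. For Acot7 they were Bub3 (r = 0.76) and Fnta (r = 0.72), and for Acot9 they were Pts (r = 0.77) and Ahcyl1 (r = 0.77). Without the 2 farthest libraries these came to 0.62 and 0.79 for Acot7 and 0.60 and 0.57 for Acot9.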

How the data were processed

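The authors deposited expected counts per gene, which are estimates (19.3% of them had a fractional part above 1e-06), and a matrix of variance-stabilized expression close to a log2 scale. The submitters' processing notes name GRCm38 and DESeq2 with no role or version. The aligner, the counting program, its handling of strand and the genome used for each strain were not given in the sources used here. Per the labels' protocols, libraries were made from polyadenylated RNA and read as pairs of 100 bases. Groups came from the titles, and replicate numbers in accession order pair no libraries.

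The expected counts, rounded to whole numbers, were fitted with edgeR 4.0.16 in R 4.3.3: TMM scaling (factors 0.954 to 1.06), filterByExpr (minimum count 10, minimum total 15), 12 group means over all 24 libraries, robust quasi-likelihood tests of 15 contrasts, and Benjamini-Hochberg adjustment over 17203 genes at 0.05. CPM values use the TMM-scaled totals. The counts of Acot1 and Acot2 were also added into 1 row, and the share of Acot1 was compared with exact permutation tests (SciPy 1.17.1). Replicate libraries differed by more than counting noise (chi-square per degree of freedom 11.6 to 68.4). The variance of log2(CPM + 0.5) was split by strain, diet and sex. Simulated counts held 100 changed genes of each size, all with a mean of 1 CPM or more. For the diet effect in CAST/EiJ, 57% of log2 changes of 0.5 and 90% of changes of 1 were recovered, over 16745 genes. Of the unchanged genes, 8 were called. In the measured counts 0 genes were called for this comparison, so these rates need not hold for them.

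The genes named are the 6 members, the tested genes of the Acot1 to Acot6 cluster and of the other thioesterases, up to 3 genes of smallest adjusted p from each other list, the 2 genes most like each member among those with a mean of 1 CPM or more, and overlapping genes; 1 gene that this rule names is not reported here. Members and lists were chosen with earlier results of these data known. Acot5, Acot10, Them5 and Olah were not analysed here.

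Alternatives were DESeq2 size factors, no scaling, scaling without mitochondrially encoded genes, no filter, DESeq2 1.42.0, limma-voom and limma 3.58.1 on the deposited log2-like values, the identifier range as a block, fewer samples in the fit and leaving out each library. Sequences came from GENCODE M21 transcripts and RefSeq promoters (GRCm38.p6), aligned with Biopython 1.88 in Python 3.11.15. Of 20961 identifiers, 20840 were found in GENCODE M21, 16855 of them with the same start and end.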

Additional observations from a re-analysis of the deposited data

Results flagged for a closer look

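Of 63 groups of 4 or 8 libraries examined for the 6 genes and the share of Acot1, 6 held a library far from the others relative to the group's range. Chance alone gives such a library in about 1 in 20 groups, and the genes share libraries.

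The second NZO/HlLtJ male library on 44% fat was the highest of its strain for Acot1, at 19.7 CPM with the next at 11.2 CPM, and for Acot2, at 125 CPM with the next at 68.4 CPM. The NZO/HlLtJ diet differences without it are given in the report.

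The first CAST/EiJ male library on 10% fat was the highest of its strain for Acot9, at 28.6 CPM with the next at 24.8 CPM. For Acot11 it stood at 93.3 CPM with the next CAST/EiJ library at 48.0 CPM, and among the CAST/EiJ libraries on 10% fat alone it stood at 93.3 CPM with the next at 46.4 CPM. Its adipocyte and nerve markers are given in the report, and their part in these values was not tested.

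The second C57BL/6J male library on 10% fat was the lowest of the C57BL/6J libraries on 10% fat for Acot11, at 24.9 CPM with the next at 28.8 CPM.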

How the results depend on the processing

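No paired analysis was possible because the labels carry no replicate numbers that pair libraries across groups.

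The strain differences that passed kept their direction under every alternative, and those that lost the call, Acot13 between NZO/HlLtJ and C57BL/6J and Acot1 between CAST/EiJ and C57BL/6J in the first range without a library, are given in the report. For diet, DESeq2 called 1 of the 6 genes in CAST/EiJ and 2 in the average over strains, and the Acot1 and Acot2 sum in the average (0.48, adjusted p = 0.000988). It gave no adjusted p for Acot1 in C57BL/6J and NZO/HlLtJ or for Acot9 in NZO/HlLtJ, which therefore had no verdict there. Leaving out single libraries gave 0 to 2 genes called in the average and 0 to 1 in NZO/HlLtJ. For the sum, these runs gave 0.40 to 0.54 for the average diet difference, 0.24 to 0.67 in NZO/HlLtJ, -0.19 to 0.24 for NZO/HlLtJ minus C57BL/6J, -0.29 to 0.14 for NZO/HlLtJ minus CAST/EiJ, and -0.17 to 0.049 for the strain difference NZO/HlLtJ minus CAST/EiJ. For the share of Acot1 in the last comparison they gave -0.885 to 0.641 percentage points.

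Small differences changed sign. Acot13 in C57BL/6J by diet came to -0.017 without scaling. Acot1 in the diet difference NZO/HlLtJ minus C57BL/6J came to -0.00090 with limma-voom and -0.052 with limma on the deposited values. Acot2 in the diet difference NZO/HlLtJ minus CAST/EiJ came to -0.0042 with limma-voom, Acot7 in C57BL/6J by diet to 0.00019 with limma on the deposited values, and Acot11 in C57BL/6J by diet to -0.15 in the first identifier range. Leaving out single libraries gave these ranges: Acot1, -0.21 to 0.23 for the diet difference NZO/HlLtJ minus C57BL/6J and -0.18 to 0.063 for the strain difference NZO/HlLtJ minus CAST/EiJ; Acot2, -0.022 to 0.14, -0.17 to 0.26 and -0.23 to 0.21 for the diet differences CAST/EiJ minus C57BL/6J, NZO/HlLtJ minus C57BL/6J and NZO/HlLtJ minus CAST/EiJ, and -0.16 to 0.056 for the strain difference NZO/HlLtJ minus CAST/EiJ. For diet, Acot11 ranged from -0.15 to 0.040 in the average, -0.12 to 0.13 in NZO/HlLtJ, -0.52 to 0.048 in CAST/EiJ and -0.071 to 0.16 in C57BL/6J. Its strain difference NZO/HlLtJ minus C57BL/6J ranged from -0.0011 to 0.13. Acot7 by diet ranged from -0.065 to 0.031 in CAST/EiJ and from -0.055 to 0.050 in C57BL/6J, and Acot13 by diet from -0.033 to 0.072 in C57BL/6J. The cause of these changes was not tested.

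Over all genes, the diet calls were 27 in the average, against 106 with DESeq2 and 17 with the range block. They were 7 in C57BL/6J, against 37 with DESeq2, 36 with its own libraries alone and 0 in the first range. They were 0 in CAST/EiJ, against 30 with DESeq2, 17 in the first range, 4 with the range block and 4 with the deposited values. They were 0 in NZO/HlLtJ, against 12 with DESeq2 and 2 with the deposited values. Leaving out single libraries gave 4 to 143 in the average, 0 to 113 in NZO/HlLtJ, 0 to 18 in CAST/EiJ and 1 to 20 in C57BL/6J. Acot1 had 161 to 1053 counts per library, fewer than Acot2 with 1503 to 4598, and its values carry more counting error.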

Other observations

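The enzymes that make acyl-CoA work against the thioesterases, and their strain calls stand beside those of all tested genes, of which 35.5% passed in NZO/HlLtJ and 58.8% in CAST/EiJ, each against C57BL/6J. Of 16 acyl-CoA synthetase genes tested, 5 were higher and 2 lower in NZO/HlLtJ against C57BL/6J, and 6 were higher and 4 lower in CAST/EiJ than in C57BL/6J. Acsl6, a long-chain synthetase known from brain, was higher in NZO/HlLtJ by a log2 difference of 1.26 and lower in CAST/EiJ, at -0.99, each against C57BL/6J. Acsm5, a medium-chain synthetase, was higher in NZO/HlLtJ by 0.87 and in CAST/EiJ by 2.46. Acss1, which activates acetate in mitochondria, was lower in both, at -0.26 in NZO/HlLtJ and -0.39 in CAST/EiJ. None of the 16 was called for diet in the average over strains, where Acsf2 had a log2 difference of 0.33 and Acsl1, the main long-chain synthetase of heart, 0.11.

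Of 18 genes of acyl-CoA binding and coenzyme A turnover, 2 were higher and 4 lower in NZO/HlLtJ against C57BL/6J, and 4 were higher and 10 lower in CAST/EiJ than in C57BL/6J, beside the same shares of all genes. Nudt19, which cleaves coenzyme A, lay below C57BL/6J in NZO/HlLtJ, at -0.80. Pank1, a kinase of coenzyme A synthesis, was lower in NZO/HlLtJ, at -0.27, and in CAST/EiJ, at -0.47. Slc25a42, the mitochondrial coenzyme A carrier, was lower in CAST/EiJ than in C57BL/6J, at -0.59, and had a log2 diet difference of 0.20 in the average over strains, which was not called. All of these calls are from edgeR at an adjusted p under 0.05.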
